A study of Rattus norvegicus with 6 samples.

Results

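The genes of the cell division cycle were examined in whole kidneys of 6 males. Of these, 3 were congenic rats of the line S.LEW(10)x12x2x3x5 and 3 were controls of its parent, the Dahl salt-sensitive (S) rat, and each animal had 1 Affymetrix expression array. The members are 41 cyclins, cyclin-dependent kinases, kinase inhibitors and replication and mitosis genes, listed by function and not by measured value. A probe set is the group of short oligonucleotides on the array that together report a transcript, and every probe set that the array annotation maps to exactly 1 member symbol was used. This gave 52 of the 31042 probe sets tested, for 38 of the 41 genes. The replication licensing gene Cdc6, the ribonucleotide reductase gene Rrm2 and the spindle gene Tpx2 had no such probe set and were not analysed here.

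The S rat is an inbred strain with salt-sensitive hypertension and proteinuria. The congenic strain has the Dahl S background with a segment of chromosome 10 from the Lewis (LEW) strain. Animals of both strains shared a birth date, were weaned at 30 days, ate chow with 0.3% salt and were killed at 53 days, and each cage held a rat of either strain. The study's title links proteinuria to impaired recycling of endosomes in proximal tubule cells, and the cell cycle genes are read here in the same animals.

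In a dividing cell, D-type cyclins with Cdk4 and Cdk6 inactivate the retinoblastoma protein in G1, which frees E2F factors to switch on cyclin E, the replication licensing genes and the enzymes of nucleotide supply. Cyclin A and cyclin B with Cdk1 then drive G2 and mitosis, where spindle kinases, motor proteins and the anaphase-promoting complex act, and inhibitors such as p21 and p27 hold the kinases in check. Most cells of a grown kidney do not divide, but the kidney of a young rat is still growing and the tubule epithelium divides again after injury. In whole tissue, fewer cycling cells and less of a transcript per cell cannot be told apart.

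Kidney identity was clear: probe sets of Umod and Slc12a1 of the thick ascending limb and of Slc34a1 and Miox of the proximal tubule lay at or above 13.21 on the log2 scale on all 6 arrays. Array medians lay between 7.48 and 7.51. A measure of RNA quality is how far 3′ control probe sets of Gapdh and beta-actin exceed the 5′ ones, a gap that widens when RNA is broken. On the log2 scale it averaged 1.79 ± 0.28 for S and 1.12 ± 0.13 for congenic rats (SD, n = 3 each). The groups were apart (exact two-sided permutation p = 0.1, and groups of 3 can give none smaller). S rat 2 had the widest gap, 2.10. With this gap as a term in the model 31 of the 52 members kept the sign of their log2 change. The same held for 17338 of all 31042 probe sets. Because the gap separated the strains, strain and RNA quality cannot be told apart here. The term widened the errors (SE of Cdk4 0.07, and 0.13 with the term), so a smaller or reversed value is not a corrected effect. Values with the term are given beside the called members and several others.

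Of the promoter motifs searched in the members, some differed in share by phase, while the CCAAT box described below was common in replication and mitosis genes alike. A few promoters, chosen by motif or by a called probe set, are printed as examples. The grouping used for the expression values came from gene function. RefSeq's promoter table (GRCr8 assembly, 250 bases before and 50 after each gene start) held 30 of the 41 genes. Searched on both strands were the E2F site (TTTGGCGC, TTTCCCGC, TTTCGCGC or TTTGCCGC), the cell cycle homology region or CHR (TTTGAA or TTCGAA), which binds the MuvB complex at late cell cycle genes, and the CCAAT box bound by NF-Y. An E2F site was present in 6 of 8 promoters of replication and nucleotide genes, in 1 of 14 of G2 and mitosis genes, in 0 of 8 of G1 genes and inhibitors, and in 2.14% of all 33469 promoters. A CHR was present in 9 of 14 promoters of G2 and mitosis genes, in 3 of 8 of replication and nucleotide genes, in 0 of 8 of G1 genes and inhibitors, and in 19.7% of all. A CCAAT box was present in 11 of 14, 6 of 8 and 3 of 8 of the same groups and in 37.5% of all, and CHR and CCAAT together in 8 of 14, 2 of 8, 0 of 8 and 7.95% of all. These matches describe the letters in the window and do not show binding.

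The 120 bases before the start are shown 5′ to 3′ for replication genes with an E2F site, for late genes with a CHR and CCAAT box, and for the genes with a called probe set, Cdk4 and Cdkn1a. Capitals mark the motif letters on either strand, and neighbouring or overlapping motifs run together.
Mcm5, a subunit of the replicative helicase (chr19:13488693-13488812, plus strand, 1 E2F site and 2 CCAAT boxes): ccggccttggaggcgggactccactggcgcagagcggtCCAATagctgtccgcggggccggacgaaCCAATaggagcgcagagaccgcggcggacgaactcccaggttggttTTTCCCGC
Mcm7, another subunit (chr12:22163179-22163298, minus strand, 1 E2F site overlapping 1 of 2 CCAAT boxes): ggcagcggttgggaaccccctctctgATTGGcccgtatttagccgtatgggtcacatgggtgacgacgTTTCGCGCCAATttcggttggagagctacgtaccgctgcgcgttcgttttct
Ccnb2, cyclin B2 (chr8:79981659-79981778, minus strand, 1 CHR and 2 CCAAT boxes): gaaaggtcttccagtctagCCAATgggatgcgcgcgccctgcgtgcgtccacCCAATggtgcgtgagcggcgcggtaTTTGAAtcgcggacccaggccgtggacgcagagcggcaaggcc
Cdc20, an activator of the anaphase-promoting complex (chr5:137255800-137255919, minus strand, 1 CHR and 2 CCAAT boxes): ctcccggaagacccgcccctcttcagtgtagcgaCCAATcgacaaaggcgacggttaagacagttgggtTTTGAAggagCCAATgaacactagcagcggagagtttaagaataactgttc
Cdk1, the mitotic kinase (chr20:19265173-19265292, plus strand, 2 CHRs and 2 CCAAT boxes): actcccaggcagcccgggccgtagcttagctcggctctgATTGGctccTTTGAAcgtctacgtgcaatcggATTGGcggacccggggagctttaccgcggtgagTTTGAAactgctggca
Cdk4, the G1 kinase (chr7:64771333-64771452, plus strand, 0 of the motifs): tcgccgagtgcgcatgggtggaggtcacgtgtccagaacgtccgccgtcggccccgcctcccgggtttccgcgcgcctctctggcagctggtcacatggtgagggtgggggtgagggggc
Cdkn1a, the p21 gene (chr20:7150812-7150931, plus strand, 0 of the motifs): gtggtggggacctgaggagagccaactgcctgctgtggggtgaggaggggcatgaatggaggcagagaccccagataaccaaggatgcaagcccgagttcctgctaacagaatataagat
In the printed bases of the late genes the CHR began 43 bases before the start in Ccnb2, 51 in Cdc20, and 16 and 72 in Cdk1. Their CCAAT boxes began 68 and 101, 41 and 86, and 49 and 81 bases before it, in the same order. Motifs farther out included an E2F site of Cdk1 at 133, a CHR of Mcm7 at 241 and another CHR of Ccnb2 at 214.

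Proliferation probe sets differed between the strains about as often, and by about as much, as probe sets over the whole array did. Of the 52 probe sets, those of Cdk4 and of Cdkn1a rose in congenic rats, none fell and 50 did not pass (limma, Benjamini-Hochberg adjusted p under 0.05 over all probe sets tested). The share called, 3.85%, stands beside 6.00% called over the whole array, of which 3.47% higher and 2.53% lower. The groups did not overlap in 13 of the 52, 10 higher and 3 lower, beside 31.2% over the whole array, 12.7% higher and 18.4% lower. An unadjusted p under 0.05 was reached by 12 of the 52 and by 25.4% of all. The median log2 change was 0.04 for the members and -0.02 for all probe sets, and the median absolute change 0.08 and 0.10. Of the 52 probe sets, 49 had a 95% interval that lay wholly within 1.5-fold in either direction (94.2%, and 90.6% of all probe sets). Of the fits that left 1 rat out, only that without S rat 1 kept the 2 calls. In such fits the weight of the rat left out and the smaller group cannot be told apart. Without S rat 2 that of Cdkn1a remained, among 968 calls over the array. Without S rat 3 or any congenic rat neither did. Those fits called few of all probe sets: 0 without S rat 3, and 350, 0 and 8 without congenic rats 1, 2 and 3. Without S rat 1 there were 5 calls, in a fit that called 15.3% of all probe sets. With the RNA quality term limma called 0 members, and 1 had an unadjusted p under 0.05.

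**Figure D1:**
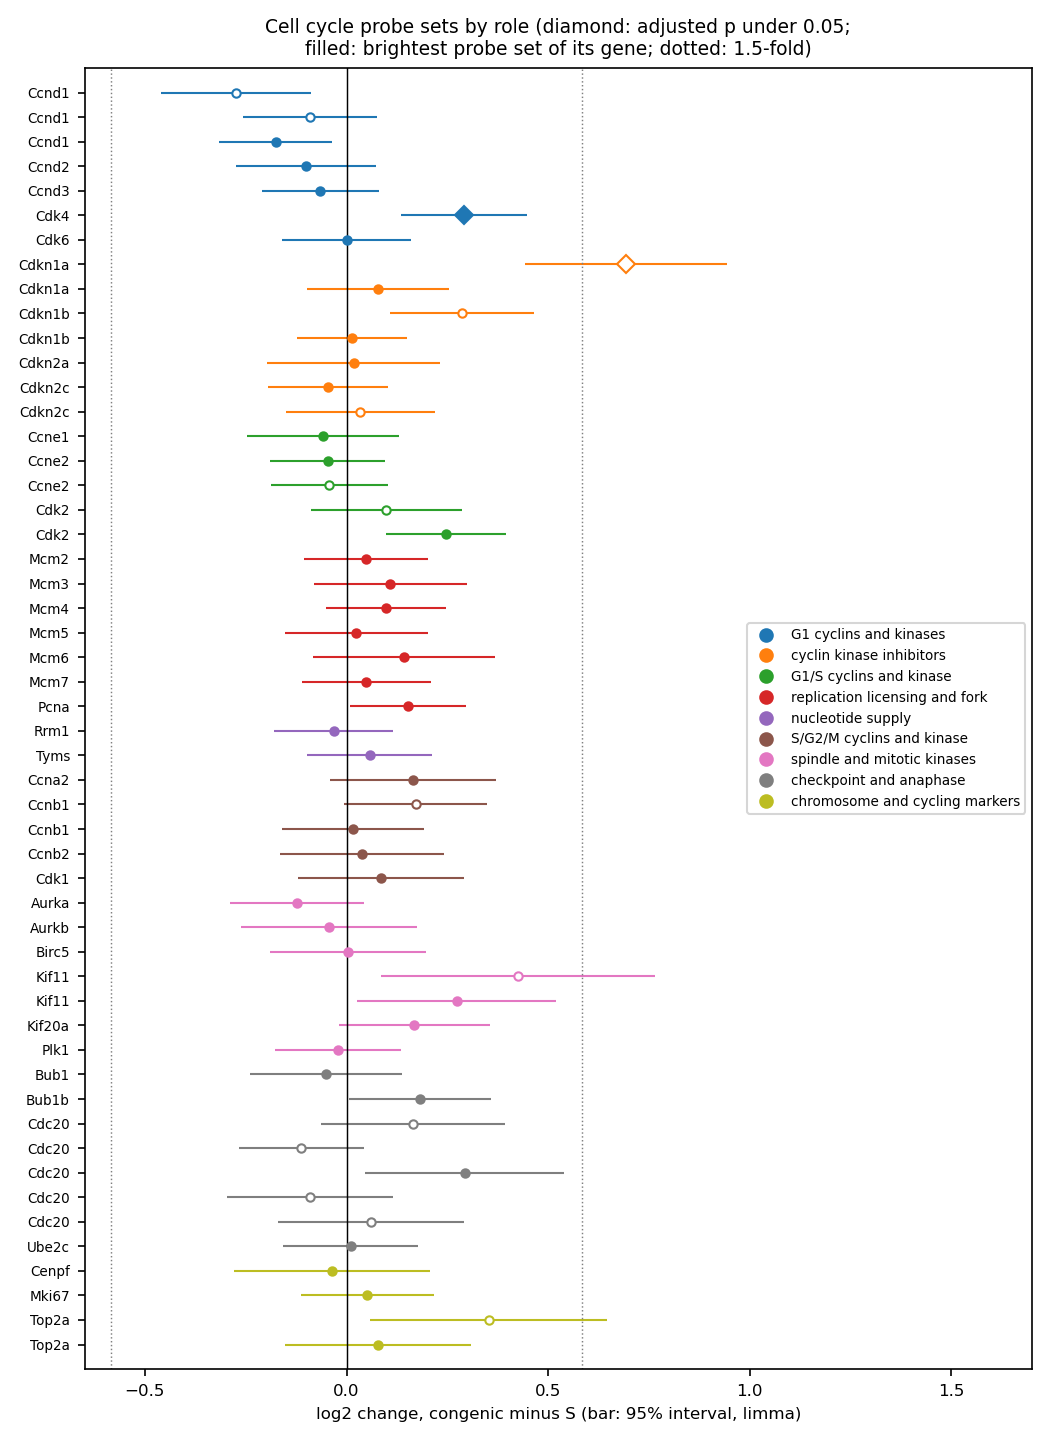
Log2 change (congenic minus S, x axis) with its 95% limma interval for each of the 52 probe sets (y axis, by gene and coloured by role). Diamonds mark Cdk4 and the dimmer Cdkn1a probe set, which passed, filled symbols the brightest probe set of a gene and dotted lines a 1.5-fold difference; 49 intervals stay between those lines.

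**Figure D2:**
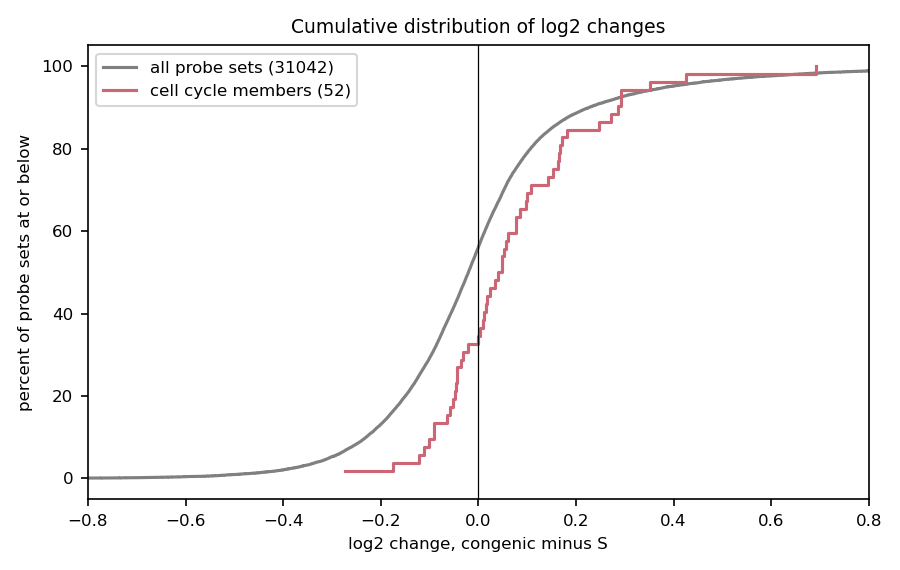
Cumulative percent of probe sets (y axis) at or below a log2 change (x axis) for the 52 members and all 31042 probe sets. Both curves rise steeply around 0, with a median of 0.04 for the members and -0.02 for all probe sets.

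Among the G1 regulators Cdk4 rose, while cyclin D1 had a lower mean that did not pass. Cdk4, which phosphorylates the retinoblastoma protein with a D-type cyclin, was at 10.73, 10.59 and 10.60 in S rats 1 to 3 and at 10.93, 10.89 and 10.98 in congenic rats 1 to 3. All congenic rats lay above all S rats. The log2 change was 0.29 ± 0.07 (SE), 1.22-fold with a 95% interval of 1.10 to 1.36 (limma, adjusted p = 0.0456). Adding the RNA quality term, with which no probe set of the array passed, gave 0.19 ± 0.13 (SE, limma adjusted p = 0.86). The adjusted p lay between 0.0913 and 0.19 without S rat 2, S rat 3 or any congenic rat. It was 0.0172 without S rat 1, in the fit that called 15.3% of all probe sets.

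Ccnd1, the cyclin D1 gene, has 3 probe sets, and each had a lower mean in congenic rats. The brightest was at 12.02, 12.05 and 12.07 in S rats against 11.87, 11.91 and 11.83 in congenic rats, without overlap, and the log2 change of -0.18 did not pass (limma, adjusted p = 0.12). The dimmest was at 10.28, 10.26 and 10.43 in S rats against 9.97, 10.17 and 10.00 in congenic animals, again without overlap (log2 change -0.27, adjusted p = 0.0798, and -0.43 with the RNA quality term). The third was at 11.71, 11.85 and 11.80 in S rats and overlapped with the congenic rats at 11.74, 11.74 and 11.60 (log2 change -0.09, adjusted p = 0.49, and 0.05 with the RNA quality term). With an intensity trend in the variance prior the brightest Ccnd1 probe set passed, in a fit that called 8.58% of all probe sets. The other D-type cyclin genes, Ccnd2 and Ccnd3, overlapped between strains and spanned 7.48 to 7.76 and 10.19 to 10.33 over the 6 rats. Cdk6, the other kinase that pairs with D-type cyclins, was dim on every array, from 5.07 to 5.22, at percentile 12.1 of the array's mean intensities, so little can be read from it.

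Among the inhibitors, Cdkn1a, the p53 target p21, gave a called and an uncalled probe set. The dimmer was at 5.77, 5.32 and 5.52 in S rats and at 6.20, 6.19 and 6.30 in congenic rats, without overlap. Its log2 change of 0.69 ± 0.11 (SE) is 1.62-fold with a 95% interval of 1.36 to 1.92 (limma, adjusted p = 0.0220), the largest of the 52. The brighter was at 9.59, 9.38 and 9.40 in S rats against 9.55, 9.49 and 9.57 in congenic rats. There the groups overlapped, and the log2 change of 0.08 was 1.06-fold with an interval of 0.93 to 1.19 (adjusted p = 0.59). The dimmer probe set lay at percentile 24.4 of mean intensity and its log2 change was 0.27 ± 0.16 (SE) with the RNA quality term. The brighter lay at percentile 78.3. Without S rat 3 or any congenic rat the dimmer probe set lost its call, with adjusted p between 0.0543 and 0.11. Those fits called 0 to 350 of all probe sets.

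Cdkn1b, the gene of p27, also had the larger log2 change at its dim probe set, but neither of its probe sets passed. Its bright probe set was at 11.98, 11.95 and 11.99 in S rats, and the congenic rats overlapped with them at 11.98, 11.97 and 12.01 (log2 change 0.01, interval -0.12 to 0.15). The dim one, at percentile 15.6, was at 5.27, 5.08 and 5.26 in S rats against 5.41, 5.56 and 5.49 in congenic animals, without overlap (log2 change 0.29, limma adjusted p = 0.0637, and 0.01 with the RNA quality term). Cdkn2c, the p18 gene, overlapped at both probe sets and spanned 9.88 to 10.01 at the brighter. Cdkn2a, which encodes p16 and p19ARF and marks senescent cells, was among the dimmest members, from 4.56 to 4.87 at percentile 5.91.

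At the G1 to S boundary, Cdk2, the kinase partner of cyclins E and A, was at 9.01, 8.91 and 9.05 in S rats and at 9.23, 9.23 and 9.24 in congenic rats at its brighter probe set. The groups were apart, and the log2 change of 0.25 missed the threshold (limma, adjusted p = 0.0594), and was 0.12 with the RNA quality term. With dim probe sets left out it passed, in a fit that called 10.6% of the probe sets kept. The other Cdk2 probe set overlapped (log2 change 0.10, adjusted p = 0.51). The cyclin E genes Ccne1 and Ccne2 overlapped at all 3 of their probe sets, spanning 7.22 to 7.47 for Ccne1 and 7.55 to 7.68 for the brighter of Ccne2.

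**Figure D3:**
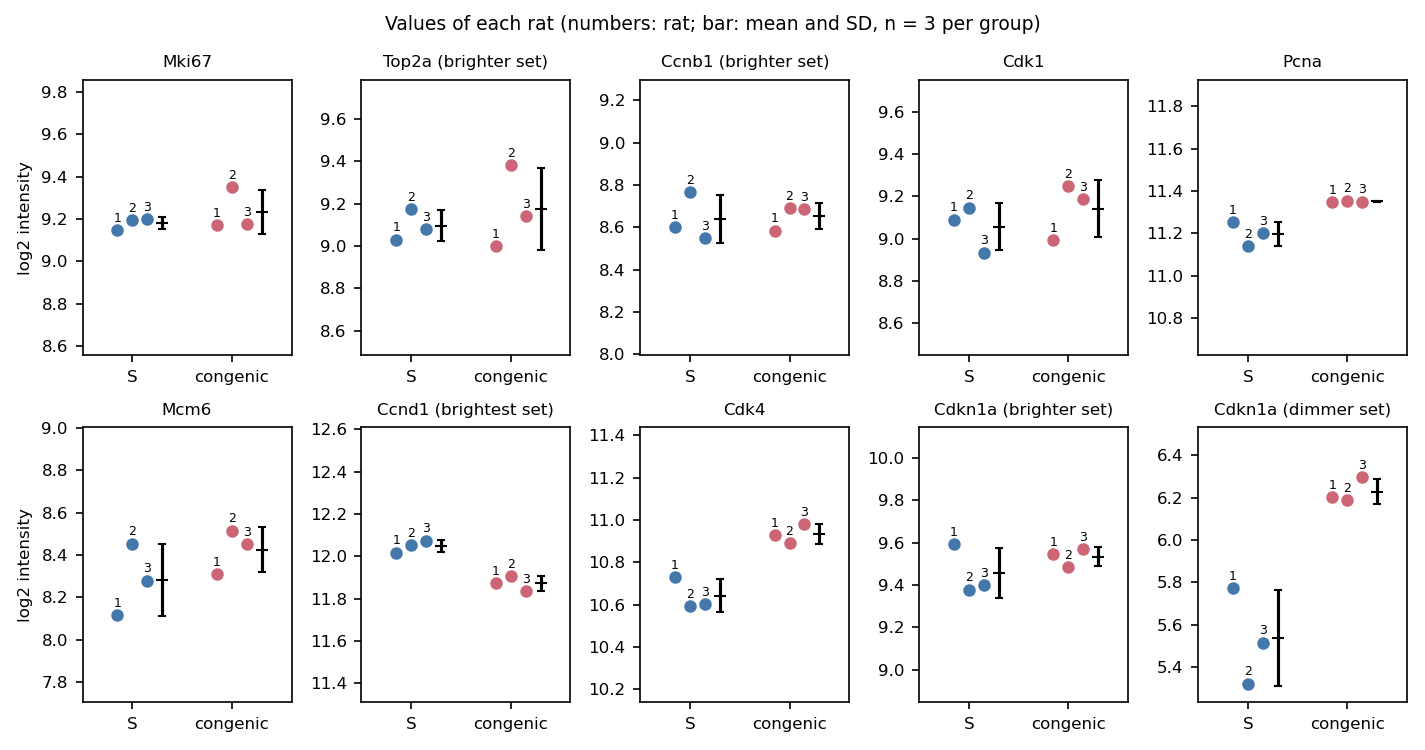
Log2 intensity (y axis, each panel of the same height and centred on its own mean) of each rat for 10 probe sets, S in blue and congenic in red, with rat numbers above the points and bars for mean and SD (n = 3). Cdk4, Pcna, Ccnd1 and the dimmer Cdkn1a probe set are separated between strains, and congenic rat 2 is the highest animal for Mki67, Top2a, Cdk1, Pcna and Mcm6.

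All 7 measured genes of replication licensing and the fork had a positive log2 change, as had 13629 of all 31042 probe sets, and none passed. With the RNA quality term 5 of the 7 and 15469 of all were positive. Averaged over the 7 genes, congenic rat 2 was the highest animal, 0.09 above the 6-rat mean. Pcna, the sliding clamp of DNA polymerase, was at 11.25, 11.14 and 11.20 in S and at 11.35 in each congenic rat. The strains did not overlap, yet the difference was 1.11-fold with an interval of 1.01 to 1.23 (log2 change 0.15, limma adjusted p = 0.17), and 0.04 on the log2 scale with the RNA quality term. Mcm6, the helicase subunit with the largest log2 change, was at 8.11, 8.45 and 8.28 in S rats against 8.31, 8.51 and 8.45 in congenic rats. These overlapped (log2 change 0.14, adjusted p = 0.42, and 0.37 with the term). Mcm4 was the other gene of the group without overlap, spanning 8.36 to 8.57 over all rats. Mcm2, Mcm3, Mcm5 and Mcm7 overlapped, and the log2 changes of the 7 genes ran from 0.02 to 0.15 with a median of 0.10. For nucleotide supply, Rrm1, the large subunit of ribonucleotide reductase, was at 9.71, 9.79 and 9.66 in S rats against 9.70, 9.70 and 9.66 in congenic animals (log2 change -0.03, adjusted p = 0.82). Tyms, which makes thymidylate, was at 6.44, 6.48 and 6.41 in S rats against 6.43, 6.58 and 6.49 in congenic rats (log2 change 0.06, adjusted p = 0.66). Both genes overlapped between the strains.

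None of the 24 probe sets of G2, mitosis and the usual proliferation markers passed (lowest limma adjusted p 0.12, with 5 below an unadjusted p of 0.05). Both Kif11 probe sets passed without S rat 1 (adjusted p = 0.0066 and adjusted p = 0.0121) and with array weights, where the brightest Cdc20 probe set also did. Those fits called 15.3% and 19.6% of all probe sets, against 6.00% in the reported fit. Mki67, which encodes the Ki-67 antigen used to count cycling cells, was at 9.15, 9.20 and 9.20 in S rats against 9.17, 9.35 and 9.18 in congenic animals. The ratio was 1.04-fold with a 95% interval of 0.92 to 1.16 (adjusted p = 0.72). Top2a, the topoisomerase that untangles sister chromatids, was at 9.03, 9.18 and 9.08 in S rats against 8.998, 9.38 and 9.14 in congenic rats at its brighter probe set, with a log2 change of 0.08 (adjusted p = 0.70). Its other probe set was at 8.69, 8.44 and 8.70 in S rats against 8.71, 9.20 and 8.99 in congenic animals. There the groups were just apart, with a log2 change of 0.35 (adjusted p = 0.13) that was -0.16 with the RNA quality term. Cenpf, a centromere protein, spanned 8.56 to 8.94 with overlap.

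Among the mitotic cyclins and their kinase, Cdk1 was at 9.09, 9.15 and 8.93 in S rats against 8.99, 9.25 and 9.18 in congenic rats (1.06-fold, interval 0.92 to 1.22, limma adjusted p = 0.62). Ccnb1, which encodes cyclin B1, was at 8.60, 8.77 and 8.55 in S rats against 8.58, 8.69 and 8.69 in congenic animals at its brighter probe set (log2 change 0.02). At the dimmer one it was at 7.84, 7.70 and 7.68 in S rats against 7.83, 8.02 and 7.87 in congenic rats (log2 change 0.17, adjusted p = 0.21). Ccna2, the cyclin of S phase and G2, was at 8.003, 8.07 and 7.87 in S rats against 8.05, 8.31 and 8.07 in congenic animals (log2 change 0.16, adjusted p = 0.30). In each of these the ranges of the strains overlapped, as they did for Ccnb2, which spanned 8.56 to 8.87.

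For the spindle, Kif11, the motor that pushes the poles apart, had the largest differences. Its brighter probe set was at 9.12, 8.69 and 8.82 in S rats against 9.13, 9.11 and 9.20 in congenic rats, and the dimmer at 7.98, 7.34 and 7.58 in S rats against 7.97, 8.01 and 8.20 in congenic animals. S rat 1 lay among the congenic rats and S rat 2 was the lowest at both. The log2 changes were 0.27 and 0.42 (limma, adjusted p = 0.16 and adjusted p = 0.12). With the RNA quality term they were -0.11 ± 0.17 and -0.20 ± 0.21 (SE). Kif20a, a kinesin of late mitosis, was at 8.25, 8.21 and 8.15 in S rats against 8.25, 8.52 and 8.34 in congenic rats (log2 change 0.17, adjusted p = 0.25), where the groups were apart only by the small gap between congenic rat 1 and S rat 1. The polo-like kinase gene Plk1 and the Aurora A gene Aurka overlapped, spanning 8.42 to 8.58 and 7.75 to 8.02.

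The checkpoint and anaphase genes likewise gave no call. The brightest probe set of Cdc20 was at 8.35, 8.34 and 8.05 in S rats against 8.37, 8.66 and 8.59 in congenic animals, without overlap (log2 change 0.29, limma adjusted p = 0.13). Another Cdc20 probe set, at 7.94, 8.09 and 7.81 in S rats, overlapped with the congenic rats at 8.08, 8.28 and 7.98 (log2 change 0.16). The other 3 were dim, at percentiles 15.4, 27.9 and 12.8, with log2 changes of 0.06, -0.09 and -0.11. The first of these was at 5.16, 5.35 and 5.40 for S and 5.29, 5.56 and 5.25 for congenic animals. The second was at 6.02, 6.32 and 6.08 for S and 5.97, 6.07 and 6.10 for congenic animals. The dimmest was at 5.17, 5.33 and 5.21 for S and 5.11, 5.16 and 5.10 for congenic animals, the one of the 3 without overlap. The suffixes of some Cdc20 probe sets mark sequences that can also match other transcripts. Bub1 and Ube2c, of the spindle checkpoint and the anaphase ubiquitin system, overlapped between strains and spanned 7.63 to 7.90 and 8.14 to 8.35. Bub1b, another checkpoint kinase, was dim and did not overlap, spanning 5.96 to 6.33 over all rats, and its log2 change of 0.18 was -0.08 with the RNA quality term.

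Aurkb, Birc5 and Top2a lie on rat chromosome 10, where the congenic strain carries its LEW segment, as does Cdc6. Aurkb and Birc5, the kinase and the survivin subunit of the chromosomal passenger complex, overlapped between strains. Aurkb was at 7.34, 7.56 and 7.27 in S rats against 7.23, 7.35 and 7.46 in congenic rats (log2 change -0.04). Birc5 was at 7.60, 7.73 and 7.65 in S rats against 7.57, 7.82 and 7.60 in congenic animals (log2 change 0.0035). None of the 4 probe sets of these 3 genes passed (limma, 1 below an unadjusted p of 0.05). Whether the genes fall inside the segment was not examined, and LEW and S sequence differences under the probes were not analysed here.

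Congenic rat 2 stood out within its group for the late cell cycle genes. It was the highest of the 6 rats in 16 of the 24 probe sets of G2, mitosis and markers (66.7%), against 16.9% of all probe sets, and the lowest in 0 of the 24. S rat 2 was the highest in 6 of the 24 (and in 32.5% of all). Averaged over the brightest probe set of each of the 17 genes, congenic rat 2 lay 0.13 above the 6-rat mean on the log2 scale, congenic rat 3 at 0.03 and congenic rat 1 at -0.06, while S rats 1 to 3 lay at -0.03, 0.02 and -0.09. The ranges of the strains overlapped. Without congenic rat 2 the log2 change of Mki67 was -0.0076 and that of the brighter Top2a probe set -0.03. Of the 48 probe sets for other mitosis genes congenic rat 2 was the highest in 15 (31.2%) and S rat 2 in 16 (33.3%). The pattern was noticed in these data and was not tested.

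**Figure D4:**
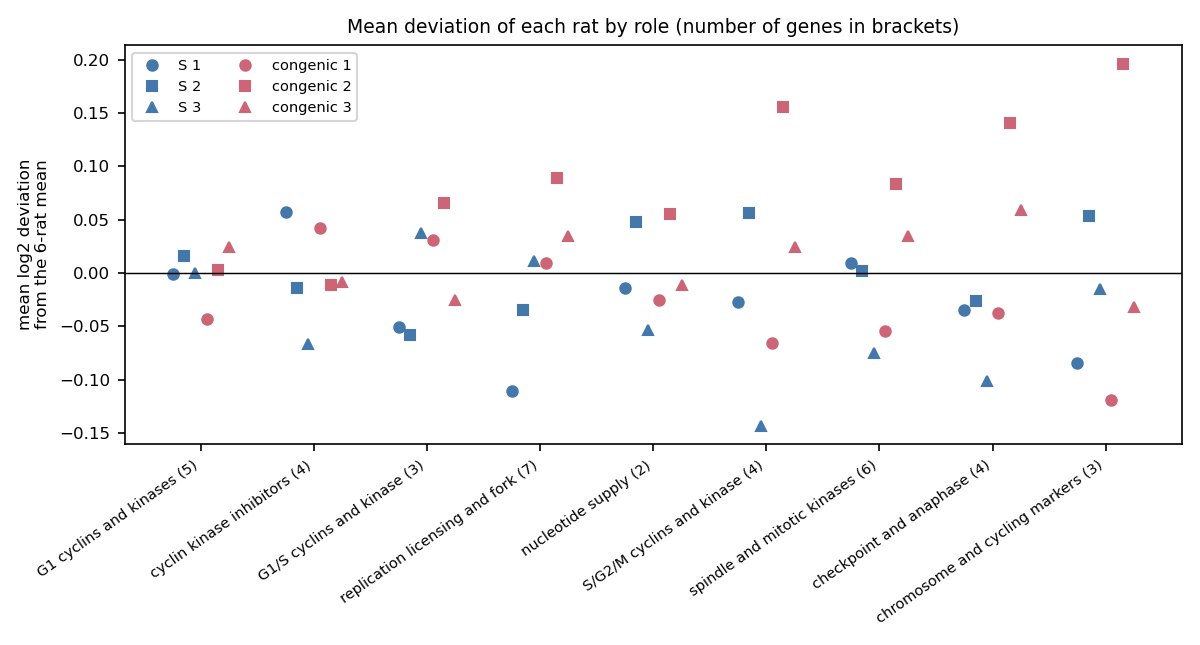
Mean log2 deviation of each rat from the 6-rat mean (y axis) over the brightest probe sets of each role (x axis, number of genes in brackets), S in blue and congenic in red. Congenic rat 2 (red square) is the highest animal in the roles from G1/S to the chromosome markers, reaching 0.20 for the last, and the strains overlap in every role.

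In the rest of the cell cycle machinery calls were few, as they were over the whole array. Of 159 probe sets for 115 of 131 listed genes outside the members, 2 rose, 4 fell and 153 did not pass. The share called was 3.77%, beside 6.00% of all probe sets (3.47% higher and 2.53% lower), and ran from 0% to 9.09% by list. The median log2 change of the 159 was -0.0056. Among 22 probe sets of E2F, retinoblastoma and MuvB regulators 2 fell: Lin52, a MuvB subunit, from 9.43, 9.46 and 9.39 in S to 8.98, 8.999 and 9.02 in congenic rats (log2 change -0.43, limma adjusted p = 0.0186), and a probe set of Tfdp2, a dimerization partner of E2F (-0.32, adjusted p = 0.0470). The other 2 of Tfdp2 did not pass, the brightest at -0.09 and the dimmest at -0.0038. The median of this list was -0.09, beside -0.02 for all probe sets. A negative change was seen in 16 of its 22 probe sets and in 17413 of all 31042. With the RNA quality term the list median was -0.03 and 8 of the 22 were positive. Lin52 was at -0.39 with the RNA quality term and the called Tfdp2 probe set at -0.19. Of 54 replication probe sets 1 of Cdc45, a helicase cofactor, rose (0.33, adjusted p = 0.0445, and 0.06 with the term). The other 3 of Cdc45 did not pass, at 0.03 in the brightest and at 0.07 and -0.11. The dimmer probe set of Dut, which removes dUTP, fell (-0.39, adjusted p = 0.0369, and -0.30 with the term), while the brighter stood at 0.11 (adjusted p = 0.45). Of 48 mitosis probe sets Melk, a mitotic kinase, fell (-0.33, adjusted p = 0.0415, and -0.52 with the term). Among 13 probe sets of p53 arrest genes the dimmer of Sesn1, a stress-inducible sestrin, rose (0.47, adjusted p = 0.0208, and 0.27 with the term), while the brighter stood at 0.38 (adjusted p = 0.25, and -0.04 with the term). Of Mdm2, the p53 ligase, the brightest probe set stood at 0.04 (adjusted p = 0.88) and the others at 0.44 and 0.40 (adjusted p = 0.0612 and adjusted p = 0.0908), or -0.10 and -0.12 with the term. None of 22 probe sets of other cyclins, kinases, phosphatases and inhibitors passed (limma, 3 below an unadjusted p of 0.05), the smallest adjusted p being that of cyclin G2, Ccng2 (0.43, adjusted p = 0.0921, and -0.05 with the term).

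Markers of other cell types that could hold cycling cells were also read. Over the whole array 6.00% of probe sets were called, 3.47% higher and 2.53% lower, and 31.2% did not overlap. The counts and sums that follow are without the RNA quality term. Of 8 mononuclear phagocyte genes 4 rose (C1qa, C1qb, Cd14 and Lyz2), and the log2 of their summed intensity ran from 13.58 to 13.75 in S and from 13.87 to 14.04 in congenic rats. Of 7 fibroblast and mural genes 3 rose (Col1a1, Dcn and Lum), with sums of 14.26 to 14.44 in S and 14.67 to 14.80 in congenic rats. Of 7 measured T and B lymphocyte genes and 5 endothelial genes none passed at the brightest probe set (limma, 1 and 2 below an unadjusted p of 0.05), and their sums overlapped, at 10.35 to 10.55 against 10.49 to 10.60 and 12.33 to 12.36 against 12.33 to 12.39. Of 7 early proximal tubule genes 3 rose, with sums of 16.17 to 16.28 in S rats against 16.29 to 16.36. Of 4 thick ascending limb genes 1 fell, with sums of 15.23 to 15.29 in S rats against 15.17 to 15.20. Of 6 adipocyte genes 1 fell and 5 had an unadjusted p under 0.05, with a median log2 change of -0.53 and sums of 12.30 to 12.79 in S rats against 11.97 to 12.24, so these 3 sums did not overlap. Of 4 measured podocyte genes none passed (0 below an unadjusted p of 0.05), with a median log2 change of 0.70 and overlapping sums of 11.18 to 12.18 against 11.91 to 12.01. The part of these cells in the Cdk4 and Cdkn1a values was not tested.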

How the data were processed

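Kidney RNA of 6 rats was measured on 1 array each. The authors deposited log2 probe set intensities that are already on a common scale, judged from the values. The software that made them is not given in the sources used here. Samples were grouped by their titles. Of 31099 probe sets 57 controls were left out; 20826 had 1 symbol, 436 had several and 9780 were not listed. Symbols were updated by Entrez identifier to RefSeq's GRCr8 gene table (20758 matched). The deposited table names no build, so printed coordinates belong to RefSeq's promoters only.

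The strain difference was fitted in R 4.3.3 with lmFit and eBayes of limma 3.58.1 (two-sided, Benjamini-Hochberg over all probe sets, threshold 0.05; residual degrees of freedom 4, and 8.49 with the prior). The fit was tested on simulated data. Gene levels were not compared between probe sets. Arrays have no read depth, so precision rests on 3 rats per group. Figures used matplotlib 3.10.9 in Python 3.11.15.

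Members and lists were chosen with earlier results of these data known. Values of every rat are given for called members, for the probe set with the smallest p and the highest mean in each role, for Mki67, Top2a, Pcna, Cdkn1a and Ccnd1, and for genes whose probe sets disagree in sign with an unadjusted p under 0.05. Second probe sets of Cdkn1b, Cdk2 and Ccnb1, and Aurkb, Birc5, Mcm6, Ccna2 and Kif20a, were added after their values were seen. Of other lists, called genes and the smallest p per list are named, with Mdm2 chosen after its values were seen. The fit was repeated after median centring or quantile normalization, without probe sets under percentile 40 of mean intensity, with robust eBayes or a prior that follows intensity, with array weights, with no moderation, with rat number as a block, with the RNA quality gap as a term, with the brightest probe set per gene and without each rat.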

Additional observations from a re-analysis of the deposited data

How the results depend on the processing

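The directions and calls of 31 named member probe sets were compared under each alternative. The members called, 2 in the reported fit, numbered 0 with the unmoderated test and 0 with the RNA quality term (7 and 1 below an unadjusted p of 0.05), 1 with the replicate block, 1 with the brightest probe set per gene, 9 with array weights and 0 to 5 when each rat was left out, where the zeros had 5 to 11 below an unadjusted p of 0.05. Calls over the whole array numbered 1862, and 0, 0, 658 and 6077 under the unmoderated test, the RNA quality term, the replicate block and array weights, and 0 to 4752 without each rat, the highest without S rat 1. The member median ran from -0.0033 to 0.061 over these omissions, the lowest without congenic rat 2. Whether rat numbers mark shared cages is not known. Deviations of same-numbered rats correlated at -0.01, -0.18 and -0.14. With 3 rats per group such correlations cannot decide whether the rats were paired. With the rat number as a replicate block in limma Cdk4 lost its call (adjusted p = 0.0966) and Cdkn1a kept it (adjusted p = 0.0357). Fits without a rat assume that the remaining pair varies like the other group.

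Some signs turned. Under quantile normalization and median centring the brighter Cdkn1b probe set stood at -0.014 and -0.0015 and Birc5 at -0.0043 and -0.010. With array weights Birc5 stood at -0.0098, Aurkb at 0.069 and a dim Cdc20 probe set at -0.027. With the RNA quality term a Ccnd1 probe set stood at 0.052, the brighter Cdkn1a at -0.079, the brighter Cdkn1b at -0.023, the dimmer Cdk2 at -0.029, Rrm1 at 0.079, the dimmer Ccnb1 at -0.0078, Aurkb at 0.14, Kif11 at -0.20 and -0.11, Cdc20 probe sets at 0.028 and 0.17 and the dimmer Top2a at -0.16. Without each rat in turn the brighter Ccnb1 ran from -0.029 to 0.080, Birc5 from -0.076 to 0.052, a dim Cdc20 probe set from -0.033 to 0.12, Rrm1 from -0.061 to 0.0044, Aurkb from -0.10 to 0.041, Mki67 from -0.0076 to 0.083, the brighter Top2a from -0.027 to 0.17 and the brighter Cdkn1b from -0.00086 to 0.023. The causes were not tested. The RNA quality gap kept its sign with beta-actin alone, Gapdh alone and without each rat. No detection call was used, so dim probe sets limit what Cdk6, Cdkn2a and the low Cdc20 probe sets can show.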

Other observations

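Most of the 38 brightest member probe sets belong to genes with a single one. Over these 38 the median absolute log2 change was 0.06 and all 38 intervals lay within 1.5-fold, with 1 call (2.63%, and 4.68% of all genes at their brightest probe set). Over the 14 other probe sets of 10 genes the median absolute change was 0.14, 11 intervals lay within 1.5-fold and 1 was called, the dimmer Cdkn1a. With the RNA quality term the sign was kept in 26 of the 38 and in 5 of the 14, beside 17338 of all 31042 probe sets. The 3 probe sets whose interval reached past 1.5-fold belonged to Cdkn1a, Kif11 and Top2a, each the dimmer one of its gene. Within genes the order varied: the brightest had the larger absolute change in Cdk2, Cdc20, Cdkn2c and Ccne2.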
